A study of Mus musculus with 67 samples.

Results

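The RNA of Ly6C- monocytes sorted from mouse bone marrow was compared with that of Ly6C+ monocytes from the same tissue, across all genes. The members are the 7 libraries that the titles name as marrow Ly6C- (n = 4) and marrow Ly6C+ (n = 3), out of 67 libraries in the series and 25 in the table of 7-week mice that holds them. All 7 came from bone marrow of C57BL/6 mice aged 7 weeks, crushed, enriched for CD115 on magnetic beads without red cell lysis by ACK buffer, and sorted by flow cytometry. Ly6C- cells of blood (n = 3) and Ly6C+ cells of blood (n = 4), from mice of the same strain and age, were used to ask where the marrow comparison differs from the same comparison in blood. Whether each replicate is an animal of its own or a pool is not stated, so p-values measure a spread between libraries of the same group that may be technical. That spread, also behind the standard errors, was estimated from all 25 libraries of the table, including groups not compared here.

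Monocytes are made in the marrow from committed progenitors that divide, and leave for the blood through chemokine signals. The Ly6C+, or classical, monocyte is recruited to inflamed tissue through the receptor CCR2, while the Ly6C-, or patrolling, monocyte crawls along the wall of blood vessels and clears debris from it. Ly6C- monocytes are understood to arise largely from Ly6C+ ones, with the nuclear receptor Nr4a1 required for their survival and C/EBPbeta upstream of it. CD115, used for the enrichment, is the receptor for colony-stimulating factor 1 and is carried by both.

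Levels are given as RPM, reads per 1000000 of a library-wide total, in the order of the replicates, 1 to 4 for Ly6C- and 1, 3 and 4 for Ly6C+. Reads on the listed genes numbered 577690 to 1267652 in the Ly6C- libraries and 906394 to 1161595 in the Ly6C+ libraries. Genes above 0 numbered 10558 to 11757 in Ly6C- and 11288 to 11555 in Ly6C+ libraries. Pairs of marrow libraries from the same group, 9 in all, had r of 0.931 to 0.970 in log2 values across genes, which are not independent of each other. Pairs of blood libraries had r of 0.934 to 0.956 in Ly6C- and of 0.907 to 0.961 in Ly6C+. Log2 ratios are fitted values of limma on log2(RPM + 1), Ly6C- minus Ly6C+, with the SE, and understate the change of low genes. Values in parentheses after levels, and those after "rose by" or "fell by", are such ratios. A call is a Benjamini-Hochberg adjusted p under 0.05 over all genes tested. The listed genes took 60.2% to 64.3% of the assumed total in Ly6C- and 70.0% to 70.8% in Ly6C+ libraries, and the median log2 ratio over all genes tested was -0.28, so values near that median are no change relative to the bulk of genes. Scaling by trimmed mean of M-values (TMM) puts this median at -0.03, and results that move with the scaling are given under both.

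The sorted antigen followed the labels. Ly6c2, the main gene of the Ly6C antigen, had 48.8, 125, 274 and 41.2 RPM in the 4 Ly6C- libraries, against 4189, 4656 and 3732 RPM in the 3 Ly6C+ libraries. Ly6c1, its close neighbour whose reads may be shared with it, had 2.49, 4.57, 7.61 and 2.22 RPM in Ly6C- and 104, 110.1 and 90.6 RPM in Ly6C+ libraries. No value of either gene overlapped between the groups, and Ly6C- replicate 3 held the most RNA of both among the Ly6C- libraries. The log2 ratios were -5.50 ± 0.41 for Ly6c2 and -4.41 ± 0.36 for Ly6c1. Csf1r, which encodes CD115, had 1798, 1677, 1645 and 1861 RPM in Ly6C- libraries, against 478, 531 and 444 RPM in Ly6C+ libraries, so both groups carried the gene of the enrichment antigen and every Ly6C- library lay above every Ly6C+ library (1.85 ± 0.14, adjusted p = 2.28e-11).

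Markers of other cells moved with the comparison. Their counts are to be read against the shares of all genes tested, 11% called higher in Ly6C- cells and 29.1% called lower. Globin genes formed the main signal: Hbb-b1, a beta-globin, had 547, 468, 317 and 931 RPM in Ly6C- libraries and 1.54, 72.4 and 104 RPM in Ly6C+ libraries. Summed over 17 erythroid genes the level was 1228 to 3132 RPM in Ly6C- and 14.7 to 299 RPM in Ly6C+ libraries, with all 4 globin genes called higher, of 7 erythroid genes tested. The erythroid genes Gata1 and Sptb were at 0 in all 7 libraries. Without Ly6C+ replicate 1, the library lowest in globin, Hbb-b1 had a log2 ratio of 2.58 and lost its call, as did Hbb-b2 (2.74), and 2 erythroid genes were called. Hba-a1 and Hba-a2 share sequence, as do the 2 beta-globins, so their reads may be divided between copies.

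Ly6C- replicate 2 stood apart in granulocyte RNA. Ngp, a neutrophil granule protein, had 1.49, 70.6, 1.17 and 2.22 RPM in Ly6C- and 0, 0 and 2.17 RPM in Ly6C+ libraries, and Camp, a neutrophil antimicrobial peptide, had 1.49, 64.03, 0.586 and 0 RPM in Ly6C- and 0, 0.608 and 0 RPM in Ly6C+ libraries. The neutrophil list of 18 genes summed to 113 to 764 RPM in Ly6C- and 442 to 593 RPM in Ly6C+ libraries. Of 14 tested genes 3 were higher and 6 lower, against 11% and 29.1% of all genes, and Stfa2 and Stfa2l1 were at 0 in all 7. Much of the Ly6C+ sum was S100a8 and S100a9, which monocytes also express. The tissue macrophage list of 16 genes summed to 758 to 1004 RPM in Ly6C- and 184 to 286 RPM in Ly6C+ libraries, with 8 of 11 tested genes higher and 0 lower. They included Adgre1, which monocytes express, and 2 markers of marrow macrophages: Vcam1, an adhesion molecule, had 4.98, 3.92, 5.27 and 6.67 RPM in Ly6C- and 0, 0.608 and 0 RPM in Ly6C+ libraries (2.39 ± 0.33), and Spic, a factor of iron-recycling macrophages, had 8.46, 12.4, 2.34 and 4.45 RPM in Ly6C- and 1.54, 0 and 0 RPM in Ly6C+ libraries (2.34 ± 0.45). Neither overlapped between the groups. Mrc1, the mannose receptor, was also higher (1.67 ± 0.53), with groups that overlapped. Of the other defining markers Marco and Vsig4 were at 0 in all 7 libraries, and Timd4 and Mertk did not pass 1.11 RPM.

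T and NK cell genes summed to 7.79 to 16.9 RPM in Ly6C- and 0.772 to 2.90 RPM in Ly6C+ libraries, with 2 of 5 tested genes higher and Cd3d, Cd3e and Cd3g at 0 in all 7. Beside the counts of this paragraph, 11% of all genes were higher and 29.1% lower. B cell genes summed to 66.7 to 107 RPM in Ly6C- and 23.9 to 46.2 RPM in Ly6C+ libraries, mostly Cd79b, with 3 of 7 higher and Pax5 at 0. Platelet genes summed to 12.3 to 17.4 RPM in Ly6C- and 6.18 to 8.51 RPM in Ly6C+ libraries (3 of 5 higher, 1 lower, Ppbp at 0). Genes of stroma and endothelium summed to 32.0 to 74.5 RPM in Ly6C- and 10.9 to 18.8 RPM in Ly6C+ libraries. Of 3 tested, 2 were higher: Vcam1, also on the tissue macrophage list, and Pecam1, also on the adhesion list. Pecam1 made up most of the sum, with 39.8, 26.1, 28.7 and 54.5 RPM in Ly6C- and 15.4, 9.12 and 15.2 RPM in Ly6C+ libraries. Lepr, Col3a1, Tek and Emcn were at 0 in all 7 libraries. Dendritic cell genes summed to 165 to 306 RPM in Ly6C- and 82.7 to 103 RPM in Ly6C+ libraries (4 of 10 higher, Xcr1 at 0; 1 lower without Ly6C- replicate 2 or Ly6C+ replicate 3). Genes of plasmacytoid dendritic cells and basophils summed to 197 to 303 RPM in Ly6C- and 176 to 213 RPM in Ly6C+ libraries. Of these, 2 of 9 were higher, with Fcer1a and Cma1 at 0, and 1 was lower without Ly6C- replicate 1. The higher ones, Runx2 and Tcf4, also stand on the list of monocyte transcription factors, as does Batf3 of the dendritic cell genes. Bst2, a large part of the sum, also stands on the list of interferon-stimulated genes. Ly6C- replicate 1 stood apart in 2 basophil genes: Prss34, a basophil protease, had 31.4, 0.653, 0 and 0 RPM in Ly6C- libraries and was at 0 in all 3 Ly6C+ libraries, and Mcpt8, another, had 8.96, 0, 0 and 0 RPM in Ly6C- and 0.772, 2.43 and 3.62 RPM in Ly6C+ libraries. Ly6d was also highest in that library, with 29.4, 1.96, 5.86 and 8.898 RPM in Ly6C- and 2.32, 7.296 and 7.25 RPM in Ly6C+ libraries. The part of other cells in the results below was not tested, and in bulk RNA fewer cells of a type and less RNA per cell cannot be told apart.

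Of 11373 genes tested, 4565 (40.1%) were called. Ly6C- cells were higher in 1256 genes (11%) and lower in 3309 (29.1%), so 27.5% of calls were higher. With TMM scaling 1844 genes (16.2%) were higher and 2217 (19.5%) lower, 45.4% of calls being higher. No gene was called in opposite directions under the 2 scalings. Counts for the gene lists below are to be read against these shares of all genes. Under all 19 alternatives that bear on this comparison, 711 genes were called higher and 1835 lower. Differences were large: 301 of the called genes had log2 ratios above 2 and 601 had ratios below -2. Of all genes tested, the groups did not overlap in 1386 with Ly6C- higher (12.2%) and 3538 with Ly6C- lower (31.1%), of which 1109 and 2986 were called. Most genes named below were chosen for no overlap or for a small p, so groups that are apart describe them and test nothing.

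**Figure D1:**
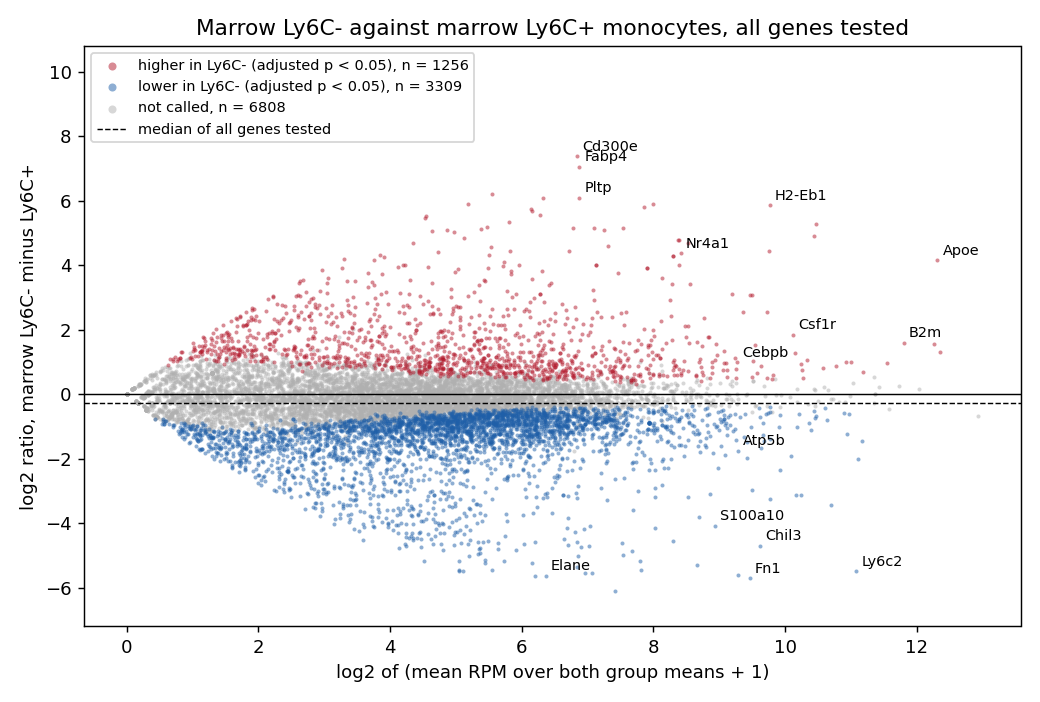
Log2 ratio of marrow Ly6C- to Ly6C+ monocytes (y axis) against the log2 of the mean RPM of both groups plus 1 (x axis) for each of 11373 genes tested, with 1256 higher genes in red, 3309 lower genes in blue and the rest in grey. The dashed line is the median of all genes at -0.28, with Cd300e labelled at 7.38 and Ly6c2 at -5.50.

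Genes by which Ly6C- monocytes are known set the upper end. Of 25 genes on that list, all tested, 24 were higher and 0 lower (25 higher with TMM), with a median log2 ratio of 4.84 against -0.28 over all genes. The list was drawn up with earlier results of these data known and shares genes with the top risers, so its counts describe and do not test. Cd300e, an activating receptor of the CD300 family, had 295, 187, 204 and 221 RPM in Ly6C- libraries and 0, 0 and 1.45 RPM in Ly6C+ libraries. It was at 0 in all Ly6C+ libraries but replicate 4, which held 2 reads, and was high in every Ly6C- library (7.38 ± 0.34, adjusted p = 7.47e-16). Fcgr4, the activating receptor for IgG2 antibodies, had 565, 482, 463 and 485 RPM in Ly6C- and 8.49, 12.2 and 3.62 RPM in Ly6C+ libraries (5.90 ± 0.27). Eno3, an enolase best known from muscle, had 543, 388, 442 and 445 RPM in Ly6C- and 4.63, 11.6 and 6.52 RPM in Ly6C+ libraries, the smallest p of the list (5.80 ± 0.23, adjusted p = 6.26e-17). Treml4, a receptor of the TREM family, and Ace, angiotensin-converting enzyme, had log2 ratios of 4.59 ± 0.23 and 4.67 ± 0.24. Values of these 5 genes did not overlap between the groups, as they did not in 12.2% of all genes with Ly6C- higher. For Cd300e, Fcgr4 and Eno3 the rule that named them required this, and Treml4 and Ace were named for a small p.

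Among the 15 genes that rose most were a cross-linking enzyme, transcription factors and signal inhibitors. Tgm2, a transglutaminase, had 82.1, 60.1, 52.7 and 85.6 RPM in Ly6C- libraries, against 0, 0.608 and 0 RPM in Ly6C+ libraries (5.90 ± 0.36). Lilra5, a receptor of the leukocyte immunoglobulin-like family, had 129.9, 92.8, 81.99 and 61.2 RPM in Ly6C- and 0, 0 and 0.725 RPM in Ly6C+ libraries (6.22 ± 0.38). Ikzf3, the zinc finger factor Aiolos of lymphocytes, had 46.8, 44.4, 41.6 and 46.7 RPM in Ly6C- libraries and was at 0 in all 3 Ly6C+ libraries. Set against a floor of 3 reads per library (2.11 RPM on average), Ikzf3 was at least 21.3-fold higher in Ly6C- cells. Its 4 values lay within a narrow range, unlike Dusp16, a phosphatase that inactivates stress kinases, which had 255, 114, 106 and 84.5 RPM in Ly6C- and 0.772, 1.82 and 2.17 RPM in Ly6C+ libraries, replicate 1 being the highest (5.67 ± 0.33).

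**Figure D2:**
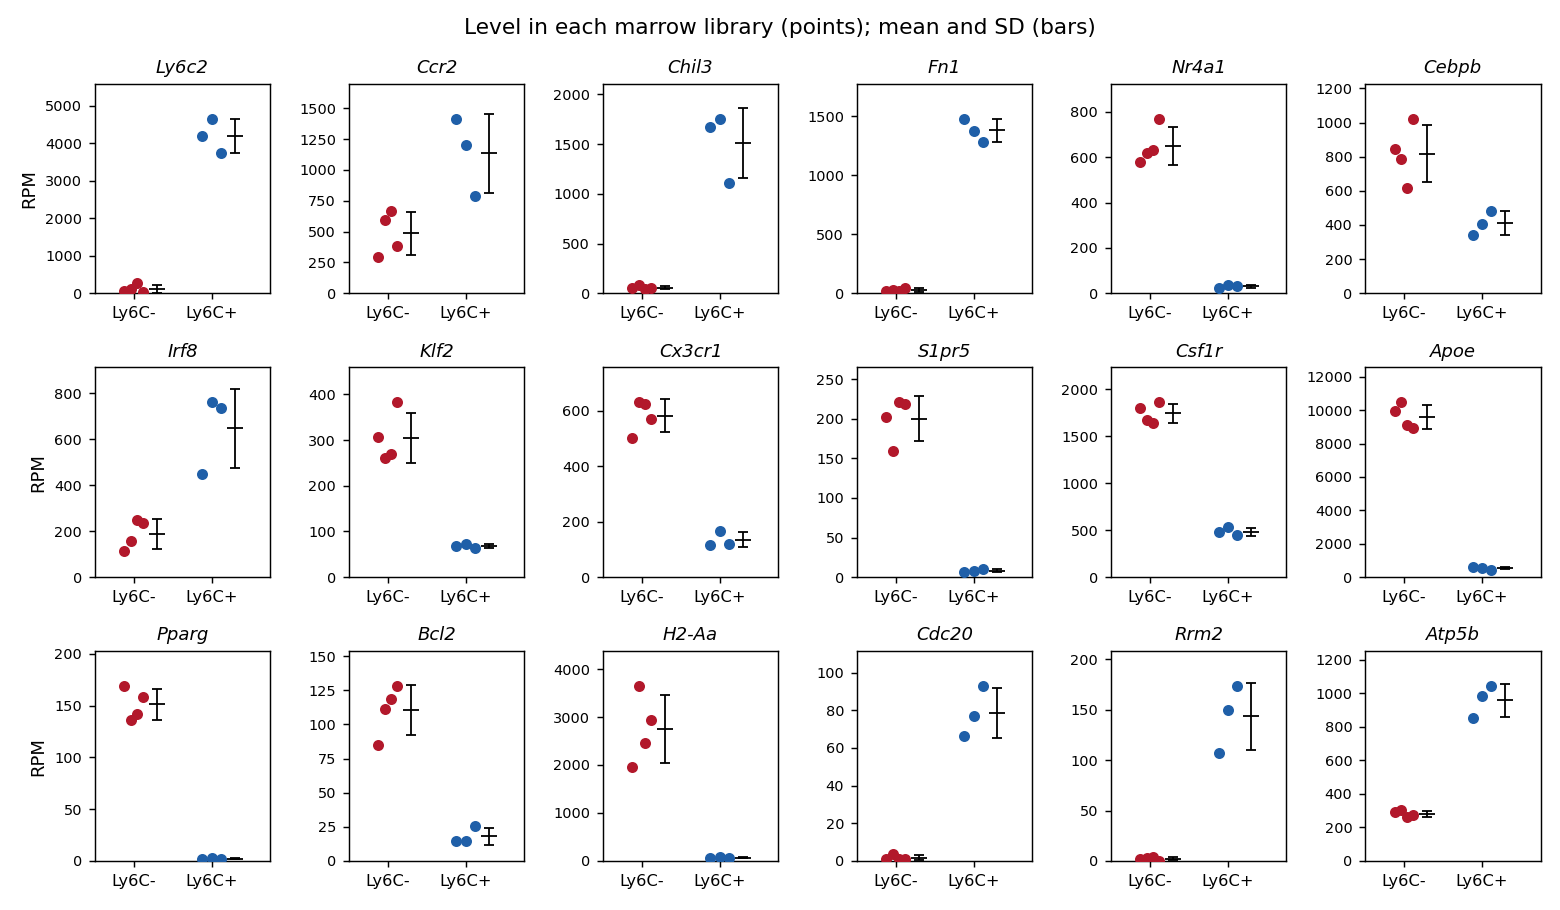
Level in RPM (y axis, from 0) of 18 named genes in each marrow library, 4 Ly6C- (red, left) and 3 Ly6C+ (blue, right), with the mean and SD beside the points. Groups are apart in all 18 panels, from Ly6c2 (41.2 to 274 RPM in Ly6C- and 3732 to 4656 RPM in Ly6C+) to Nr4a1 (578 to 771 and 24.7 to 35.3 RPM). The genes were picked for display, and Klf4, Cxcr4 and Spi1, whose groups overlapped, are not shown. Of all genes tested, 12.2% had groups apart with Ly6C- higher and 31.1% with Ly6C- lower.

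Among transcription factors of monocytes, 16 of 33 tested were higher and 6 lower (19 and 4 with TMM; median 0.46). Nr4a1, the nuclear receptor on which Ly6C- monocytes depend, had 578, 620.0, 630.1 and 771 RPM in Ly6C- and 24.7, 35.3 and 31.9 RPM in Ly6C+ libraries (4.37 ± 0.29, adjusted p = 6.51e-13). Tcf7l2, a factor of Wnt signalling, had 43.3, 65.3, 91.4 and 141 RPM in Ly6C- and 1.54, 0.608 and 1.45 RPM in Ly6C+ libraries (5.19 ± 0.37). Both genes were higher in every Ly6C- library, with Nr4a1 in a tight range and Tcf7l2 spread over 43.3 to 141 RPM. Klf2, a Krüppel-like factor of quiescence and trafficking, and Mef2c, a MADS box factor, rose by 2.13 and 1.78. Klf4, a relative of Klf2 that Ly6C- monocytes are known to need, did not pass the test, with 236, 364, 449 and 445 RPM in Ly6C- and 408, 514 and 444 RPM in Ly6C+ libraries, which overlapped (-0.32 ± 0.25, adjusted p = 0.324).

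The C/EBP factors moved in both directions. Cebpb had 848, 784, 616 and 1023 RPM in Ly6C- libraries, against 341, 405 and 483 RPM in Ly6C+ libraries (0.99 ± 0.23, adjusted p = 7.85e-04). Cebpd, an acute-phase member, had 111, 105, 74.4 and 110.1 RPM in Ly6C- and 299.6, 249 and 323 RPM in Ly6C+ libraries (-1.53 ± 0.20, adjusted p = 4.66e-07). Neither gene overlapped between groups. Cebpe, the member of maturing granulocytes, had 0.995, 2.61, 0.586 and 0 RPM in Ly6C- and 14.7, 34.7 and 39.1 RPM in Ly6C+ libraries (-3.94 ± 0.44). Cebpa, the member that opens the myeloid programme, had 15.4, 16.3, 13.5 and 22.2 RPM in Ly6C- and 34.7, 34.7 and 40.6 RPM in Ly6C+ libraries (-1.09 ± 0.39, adjusted p = 0.0249), a call that was lost with TMM scaling (-0.83, adjusted p = 0.0987). It held in 10 of 19 alternatives, and was also lost when Ly6C- replicate 3 or any 1 of the Ly6C+ libraries was left out (limma's adjusted p of 0.0512 to 0.0815). Irf8, the interferon regulatory factor that directs progenitors to monocytes, had 112, 157, 250.1 and 237 RPM in Ly6C- and 449, 761 and 734 RPM in Ly6C+ libraries (-1.80 ± 0.26). Spi1, encoding the myeloid factor PU.1, had 513, 453, 504 and 293 RPM in Ly6C- and 218, 308 and 241 RPM in Ly6C+ libraries (0.76 ± 0.20, adjusted p = 0.00338). Irf8 did not overlap between groups, while for Spi1 Ly6C- replicate 4 lay below the highest Ly6C+ library.

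Immediate early genes and inhibitors of signalling included many that were higher in Ly6C- cells, where 11% of all genes tested were. Of 18 immediate early genes tested 10 were higher and 0 lower (median 0.80; 1 lower without Ly6C- replicate 2 or Ly6C+ replicate 1), among them Btg2, an antiproliferative gene (1.64 ± 0.22), Ier5 (1.55 ± 0.25) and Jun, a part of AP-1 (1.36 ± 0.35). Of 27 feedback inhibitors 15 were higher and 2 lower (18 and 1 with TMM; 1 lower without Ly6C- replicate 3 or Ly6C+ replicate 4; median 1.03). Dusp1, a phosphatase of MAP kinases, had 118, 65.99, 93.7 and 112 RPM in Ly6C- and 12.4, 11.6 and 5.799 RPM in Ly6C+ libraries (3.20 ± 0.32). Zfp36l1, which directs the decay of AU-rich messages, had 111, 103, 146 and 102 RPM in Ly6C- and 4.63, 9.73 and 5.07 RPM in Ly6C+ libraries (4.01 ± 0.26). The groups were far apart for both. Nfkbiz, a nuclear partner of NF-kappaB, and Rgs2, which turns off G protein signals, rose by 3.82 and 1.54.

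Genes of the Bcl2 family, survival and death-promoting members together, were higher in 7 and lower in 4 of 17 cases (median 0.09, with 8 and 2 under TMM). Of all genes, 11% were higher and 29.1% lower. Bcl2, the founding inhibitor of apoptosis, had 85.1, 111, 119 and 128 RPM in Ly6C- libraries, against 14.7, 14.6 and 25.4 RPM in Ly6C+ libraries (2.57 ± 0.21, adjusted p = 5.86e-11). The gene Bcl2a1d, a copy of the A1 survival gene, had 55.2, 42.5, 42.8 and 35.6 RPM in Ly6C- libraries and 0 in the Ly6C+ libraries, at least 20.9-fold higher against the same floor. The copies Bcl2a1b and Bcl2a1a had ratios of 5.04 and 4.31, and reads may be divided among these near-identical genes. Bid, a death-promoting member, had 35.3, 26.8, 15.8 and 34.5 RPM in Ly6C- and 88.8, 106 and 124 RPM in Ly6C+ libraries, with no overlap (-1.93 ± 0.25).

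Receptors for traffic moved in both directions. Ccr2, which draws classical monocytes out of marrow, had 297, 595, 667 and 383 RPM in Ly6C- libraries, against 1417, 1206 and 786 RPM in Ly6C+ libraries (-1.26 ± 0.39, adjusted p = 0.0104). The groups were apart, but the call was lost with TMM scaling (-0.97, adjusted p = 0.0728) and without Ly6C+ replicate 1 (-1.08). S1pr5, the sphingosine phosphate receptor by which patrolling monocytes leave marrow, had 202, 159, 221 and 219 RPM in Ly6C- and 6.95, 7.296 and 10.9 RPM in Ly6C+ libraries (4.44 ± 0.25, adjusted p = 2.08e-14). Cx3cr1, the fractalkine receptor, had 501, 629.9, 623 and 571 RPM in Ly6C- and 117, 165 and 120.3 RPM in Ly6C+ libraries (2.12 ± 0.23). Every Ly6C- library lay above every Ly6C+ library for both. Ccr1, a receptor for inflammatory chemokines, had 0, 6.53, 4.099 and 1.11 RPM in Ly6C- and 83.4, 78.4 and 47.1 RPM in Ly6C+ libraries (-4.51 ± 0.57). Cxcr4, the receptor that holds cells in marrow, was not called, with 117, 87.6, 56.2 and 113 RPM in Ly6C- and 104, 94.9 and 126 RPM in Ly6C+ libraries (-0.26 ± 0.41, adjusted p = 0.653; 0.03 with TMM), and its groups overlapped. In all, 10 of 24 chemokine and sphingosine phosphate receptors were higher and 6 lower (median 0.61, with 11 and 1 under TMM). Without Ly6C+ replicate 4 the lower ones numbered 2. The share of lower ones was near the 29.1% of all genes, and that of higher ones above 11%. Under TMM, 16.2% of all genes were higher and 19.5% lower.

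Adhesion genes were higher in 13 and lower in 6 of 28 cases (median 0.69, with 17 and 5 under TMM), against 11% and 29.1% of all genes. Itgax, the integrin chain CD11c, had 65.7, 75.1, 57.4 and 66.7 RPM in Ly6C- and 2.32, 1.22 and 0.725 RPM in Ly6C+ libraries (4.84 ± 0.33). The tetraspanins Cd82 and Cd9 rose by 2.55 and 2.97, and Emb, an adhesion molecule of the immunoglobulin family, fell by 2.29 on the log2 scale. These 4 genes did not overlap between the groups.

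Of 16 genes of MHC class II presentation tested, 11 were higher and 2 lower (11 and 1 with TMM; median 1.32), and 1 was lower when Ly6C- replicate 1 or 3 or Ly6C+ replicate 1 or 4 was left out. H2-Aa, an alpha chain of class II, had 1959.6, 3641, 2468 and 2944 RPM in Ly6C- libraries, against 55.6, 80.9 and 69.6 RPM in Ly6C+ libraries (5.28 ± 0.27, adjusted p = 5.47e-15). H2-Eb1, a beta chain, had 1303, 2416, 1543 and 1583 RPM in Ly6C- and 27.02, 34.7 and 22.5 RPM in Ly6C+ libraries (5.86 ± 0.29). Ly6C- replicate 2 was the highest for both, and the groups were far apart. Ciita, the regulator that switches class II genes on, had 14.4, 31.4, 26.4 and 18.9 RPM in Ly6C- and 0.772, 0.608 and 0.725 RPM in Ly6C+ libraries (3.75 ± 0.37). Cd83, which slows the removal of class II from the surface, had 147, 116, 105 and 64.5 RPM in Ly6C- and 1.54, 1.22 and 2.17 RPM in Ly6C+ libraries (5.32 ± 0.33). The dendritic cell sum, given above, was also highest in Ly6C- replicate 2.

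MHC class I genes were higher in 9 and lower in 4 of 25 cases (median -0.17, with 10 and 1 under TMM), against 11% and 29.1% of all genes. With Ly6C- replicate 3 or Ly6C+ replicate 3 or 4 left out, 2 were lower. B2m, the light chain of class I, had 5725, 5627, 5964 and 4024 RPM in Ly6C- and 2298, 1880.1 and 1224 RPM in Ly6C+ libraries (1.60 ± 0.21). The heavy chains H2-K1 and H2-D1 rose by 1.06 and 0.97, and H2-Q7, a nonclassical one, by 3.12. Among Fc receptors, 4 of 7 were higher and 0 lower. They were Fcgr4, Fcgrt, which recycles IgG (2.40), Fcer1g, the shared signalling chain (1.29), and Fcgr2b, the inhibitory receptor (0.70), whose call held in 12 of 19 alternatives. Paired and CD300 receptors split into 10 higher and 8 lower of 28 (13 and 6 with TMM; median 0.29), the lower ones near the 29.1% of all genes. Cd300ld rose by 5.14, while Lilra6 had 4.48, 15.03, 11.1 and 12.2 RPM in Ly6C- and 184, 206 and 194 RPM in Ly6C+ libraries (-4.16 ± 0.32).

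C-type lectins, which bind sugars on microbes and dying cells, were higher in 10 and lower in 3 of 17 cases (median 1.13). Clec4a3 had 659, 675, 560.5 and 385 RPM in Ly6C- and 71.03, 49.9 and 39.1 RPM in Ly6C+ libraries (3.40 ± 0.38), and Clec4n, encoding dectin-2, and Clec2d rose by 2.31 and 1.18. Clec5a, a receptor linked to DAP12, had 0.498, 3.92, 2.93 and 3.34 RPM in Ly6C- and 59.4, 78.4 and 47.8 RPM in Ly6C+ libraries (-4.20 ± 0.34), and Klrb1f fell by 4.64 on the log2 scale. These lectin genes did not overlap between groups. Toll-like receptors and their adaptors moved little, 4 of 23 being higher and 1 lower (6 and 0 with TMM; median 0.22), with Tlr2 at 0.84 ± 0.25 and Tlr13 at 0.79 ± 0.23. Without Ly6C+ replicate 4, Toll-like genes numbered 1 higher and 0 lower, and without Ly6C- replicate 3, 2 were higher. The call of Tlr13 was lost without Ly6C+ replicate 4 (0.56).

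Of 33 lipid genes tested, 15 were higher and 3 lower, also with TMM (median 0.45). Apoe, the apolipoprotein that carries cholesterol out of macrophages, had 9952, 10464, 9135 and 8908 RPM in Ly6C- libraries, against 601, 562 and 457 RPM in Ly6C+ libraries (4.16 ± 0.22, adjusted p = 7.43e-15). Pltp, which transfers phospholipid between lipoproteins, had 241, 235, 220.2 and 226 RPM in Ly6C- and 4.63, 1.82 and 1.45 RPM in Ly6C+ libraries (6.09 ± 0.27). Fabp4, a fatty acid carrier of the cytosol, had 257, 221, 220.2 and 230.2 RPM in Ly6C- and 2.32, 0.608 and 0 RPM in Ly6C+ libraries (7.06 ± 0.45). All 3 were far apart between the groups with little spread inside the Ly6C- group. Pparg, the nuclear receptor that directs lipid storage genes, had 169, 137, 142 and 158 RPM in Ly6C- and 1.54, 3.04 and 2.17 RPM in Ly6C+ libraries (5.57 ± 0.30). Cd36, which takes up fatty acids and oxidised lipoproteins, had 151, 188, 161 and 127 RPM in Ly6C- and 0.772, 1.82 and 1.45 RPM in Ly6C+ libraries (6.08 ± 0.32). Enzymes of cholesterol synthesis had 0 of 22 higher and 6 lower (1 and 5 with TMM; median -0.65), a share of lower genes near the 29.1% of all genes, with Fdps, which makes farnesyl diphosphate, at -2.09 ± 0.24.

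Scavenger and dying-cell receptors were higher in 8 and lower in 1 of 15 cases (median 1.08), the lower one being Msr1, the class A scavenger receptor (-2.64 ± 0.32). Lrp1, a receptor for apolipoprotein E and for dying cells, rose by 1.22, and Cxcl16, a membrane chemokine that binds oxidised lipid, by 2.24. Complement genes were higher in 9 and lower in 3 of 16 cases (median 1.11). C1qb, a chain of the first component, had 160.2, 244, 189 and 367 RPM in Ly6C- and 19.3, 27.97 and 46.4 RPM in Ly6C+ libraries (2.92 ± 0.51), with C1qa and C1qc at 2.79 and 2.86; all 3 also stand on the tissue macrophage list. Cfp, properdin of the alternative pathway, had 65.7, 79.1, 62.7 and 65.6 RPM in Ly6C- and 457, 482 and 534 RPM in Ly6C+ libraries (-2.83 ± 0.20), and C3, the central component, had 89.6, 89.5, 75.5 and 81.2 RPM in Ly6C- and 462, 440.2 and 399 RPM in Ly6C+ libraries (-2.36 ± 0.19). The groups did not overlap for any of the 3 genes with values here.

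Growth factor and cytokine receptors were higher in 12 and lower in 3 of 28 cases (15 and 2 with TMM; median 0.41). Beside Csf1r, Il10ra, the receptor of the anti-inflammatory interleukin-10, had 312, 365, 272 and 545 RPM in Ly6C- and 78.7, 105 and 82.6 RPM in Ly6C+ libraries (2.02 ± 0.24). Tgfbr2, a receptor of TGF-beta, had 83.1, 84.9, 100.2 and 84.5 RPM in Ly6C- and 13.9, 15.8 and 16.7 RPM in Ly6C+ libraries (2.44 ± 0.22). Neither overlapped between groups. Cytokine genes were higher in 8 and lower in 4 of 22 cases (median 0.08, with 9 and 1 under TMM), against 11% and 29.1% of all genes. Without Ly6C+ replicate 1, 2 were lower. Il1b, encoding interleukin-1 beta, had 94.5, 114, 168 and 172 RPM in Ly6C- and 3.09, 0.608 and 1.45 RPM in Ly6C+ libraries (5.73 ± 0.37), and Ccl2, the ligand of CCR2, was low in both, with 0, 0, 1.17 and 0 RPM in Ly6C- and 3.86, 2.43 and 6.52 RPM in Ly6C+ libraries (-2.04 ± 0.36).

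Genes that mark classical monocytes were lower in Ly6C- cells, on a list also drawn up with earlier results of these data known. Of 20 on the list 15 were lower and 1 higher (13 and 1 with TMM; median -2.71). Fn1, fibronectin, had 16.4, 30.7, 17.6 and 46.7 RPM in Ly6C- libraries, against 1482, 1374 and 1287 RPM in Ly6C+ libraries (-5.70 ± 0.27, adjusted p = 9.88e-16). F13a1, the A chain of clotting factor XIII, had 12.4, 43.1, 65.01 and 8.898 RPM in Ly6C- and 1237, 1327 and 1067 RPM in Ly6C+ libraries (-5.60 ± 0.38). Chil3, a chitinase-like secreted protein, had 50.8, 82.3, 48.02 and 48.9 RPM in Ly6C- and 1674, 1757 and 1106 RPM in Ly6C+ libraries (-4.70 ± 0.32). The gap between groups was wide for all 3, and Ly6C- replicates 2 and 3 held more F13a1 than replicates 1 and 4. Of 8 S100 genes 7 were lower and 0 higher (6 and 0 with TMM; median -1.91). S100a10, the annexin A2 partner, had 45.8, 63.4, 64.4 and 43.4 RPM in Ly6C- and 916, 951 and 892 RPM in Ly6C+ libraries (-4.08 ± 0.18, adjusted p = 5.06e-16), and S100a4 and S100a6 fell by 1.93 and 1.88 on the log2 scale. S100a8, an alarmin shared with neutrophils, had 1.99, 149, 38.6 and 3.34 RPM in Ly6C- and 182, 161 and 102 RPM in Ly6C+ libraries, overlapping through replicate 2, and its call was lost with TMM scaling (adjusted p = 0.0502). The Ms4a membrane proteins had 2 of 9 higher and 5 lower, and the Slfn genes 0 of 8 higher and 4 lower (2 and 3, and 1 and 3, with TMM). Without Ly6C+ replicate 1, 3 Ms4a genes were lower.

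Primary granule genes, made at the promyelocyte stage, were lower in 12 and higher in 1 of 14 cases (11 and 1 with TMM; median -3.23). Prtn3, proteinase 3, had 3.98, 71.9, 22.3 and 17.8 RPM in Ly6C- and 693, 784 and 871 RPM in Ly6C+ libraries (-5.29 ± 0.54). Elane, neutrophil elastase, had 0.498, 11.8, 0.586 and 2.22 RPM in Ly6C- and 153, 203 and 121 RPM in Ly6C+ libraries (-5.64 ± 0.65), and Ctsg, cathepsin G, had 6.47, 45.7, 8.199 and 11.1 RPM in Ly6C- and 355, 359 and 328 RPM in Ly6C+ libraries (-4.63 ± 0.49). Ly6C- replicate 2, which also held neutrophil RNA, was the highest Ly6C- library for all 3. Without it the ratios were -5.91 for Prtn3, -6.31 for Elane and -5.21 for Ctsg, and 12 genes of the list were lower. Srgn, the granule proteoglycan serglycin that most blood cells make, had 1668, 1425, 1324 and 1361 RPM in Ly6C- and 279, 257 and 204 RPM in Ly6C+ libraries and was the higher one (2.55 ± 0.14). Progenitor genes were lower in 6 and higher in 0 of 18 cases (6 and 1 with TMM; median -0.90), a share of lower genes near the 29.1% of all genes, with Myb, the factor of dividing progenitors, at 1.49, 7.19, 0 and 0 RPM in Ly6C- and 37.1, 31.6 and 32.6 RPM in Ly6C+ libraries (-4.03 ± 0.54).

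The cell cycle separated the groups. Of 41 mitosis genes, all tested, 40 were lower in Ly6C- cells and 0 higher, against 29.1% of all genes lower, with a median log2 ratio of -4.48 (40 lower and 1 higher with TMM, and 1 higher without Ly6C- replicate 4). Their summed level was 222 to 316 RPM in Ly6C- libraries and 4869 to 5492 RPM in Ly6C+ libraries. Racgap1, which builds the cleavage furrow, had 10.4, 5.88, 7.61 and 6.67 RPM in Ly6C- and 189, 199 and 302 RPM in Ly6C+ libraries (-4.73 ± 0.27, adjusted p = 4.55e-14). Cdc20, the activator of the anaphase-promoting complex, had 0.995, 3.92, 1.17 and 1.11 RPM in Ly6C- and 66.4, 77.2 and 92.8 RPM in Ly6C+ libraries (-4.93 ± 0.32). Cenpa, the histone of centromeres, had 29.9, 29.4, 24.01 and 24.5 RPM in Ly6C- and 432, 497 and 542 RPM in Ly6C+ libraries (-4.14 ± 0.28). None of the 3 came near overlap, and Mki67, the gene of the Ki-67 proliferation antigen, did not either, with 6.47, 5.23, 12.9 and 8.898 RPM in Ly6C- and 224, 270.0 and 163 RPM in Ly6C+ libraries (-4.59 ± 0.49). Ccna2, cyclin A2, and Ccnb2, cyclin B2, fell by 5.54 and 5.35 on the log2 scale.

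Promoters of mitosis genes are known for the cell cycle homology region (CHR), TTTGAA, bound by the complexes that silence them in resting cells, and for CCAAT boxes, bound by the factor NF-Y. RefSeq windows (GRCm38.p6) from 250 bases before to 50 after an annotated start were searched on both strands. At least 1 window held CHR in 26 of 34 mitosis genes with a window (76.5%), against 20.2% of all 27025 genes with one, and CCAAT in 25 of 34 (73.5%), against 41.1%. The E2F site TTTGGCGC was found in 6 of 34 DNA replication genes (17.6%), against 0.585% of all genes. The interferon-stimulated response element (ISRE) was found in 18 of 28 interferon-stimulated genes (64.3%), against 3.99%. In 20 Ly6C- monocyte genes with a window, the NR4A site AAAGGTCA was found in 0, against 1.7% of all genes, and the C/EBP site TTGCNNAA in 4 (20%), against 12.2%. The list members were all tested genes, a narrower set than all genes. Of the 8703 tested genes with a window, 14.4% held CHR, 43.3% CCAAT and 1.26% the E2F site. The ISRE was in 3.87% of them, the NR4A site in 1.13% and the C/EBP site in 10%. The motifs were searched independently and may overlap, a match describes letters in a window, and no match says only that these letters are absent from it. To show what a CHR promoter of the falling genes looks like, 120 bases are given for the 3 mitosis genes of smallest p that hold the motif and have 1 window, so the match is part of the choice. Capitals mark the CHR. Racgap1 lies at chr15:99651607-99651726 (minus strand), Cdc20 at chr4:118437299-118437418 (minus strand) and Cenpa at chr5:30666816-30666935 (plus strand), and each stretch reads 5′ to 3′ in the gene's direction.
Racgap1: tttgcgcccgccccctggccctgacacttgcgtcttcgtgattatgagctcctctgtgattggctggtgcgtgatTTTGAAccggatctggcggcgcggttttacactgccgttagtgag
Cdc20: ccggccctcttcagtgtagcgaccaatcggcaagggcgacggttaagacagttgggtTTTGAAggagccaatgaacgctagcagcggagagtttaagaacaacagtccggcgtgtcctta
Cenpa: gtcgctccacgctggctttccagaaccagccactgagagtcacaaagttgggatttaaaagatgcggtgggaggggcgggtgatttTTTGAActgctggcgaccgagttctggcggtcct

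DNA replication genes were lower in 41 of 42 cases and higher in 0 (40 lower with TMM; median -2.57), with a summed level of 493 to 642 RPM in Ly6C- and 2754 to 3628 RPM in Ly6C+ libraries. Rrm2, a subunit of ribonucleotide reductase, had 1.99, 3.27, 4.099 and 0 RPM in Ly6C- and 107, 149.6 and 173 RPM in Ly6C+ libraries (-5.64 ± 0.42). Mcm5 of the replicative helicase had 18.4, 18.3, 19.3 and 20.02 RPM in Ly6C- and 138, 180.0 and 213 RPM in Ly6C+ libraries (-3.13 ± 0.25). Mcm5 was still present in each Ly6C- library, while Rrm2 was near 0 there. DNA repair genes were lower in 29 of 36 cases and higher in 0 (25 and 0 with TMM; median -1.91), with H2afx, the histone marked at breaks, at -4.56 ± 0.27 and Rad51ap1, a helper of recombination, at -4.46 ± 0.45. Regulators of the G1 phase split into 6 higher and 13 lower of 25 (9 and 13 with TMM; median -1.08), the lower ones including cyclin E genes Ccne1 (-4.47) and Ccne2 (-4.71) and the E2F genes E2f8 (-4.58), E2f7 (-3.43) and E2f2 (-1.83).

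**Figure D3:**
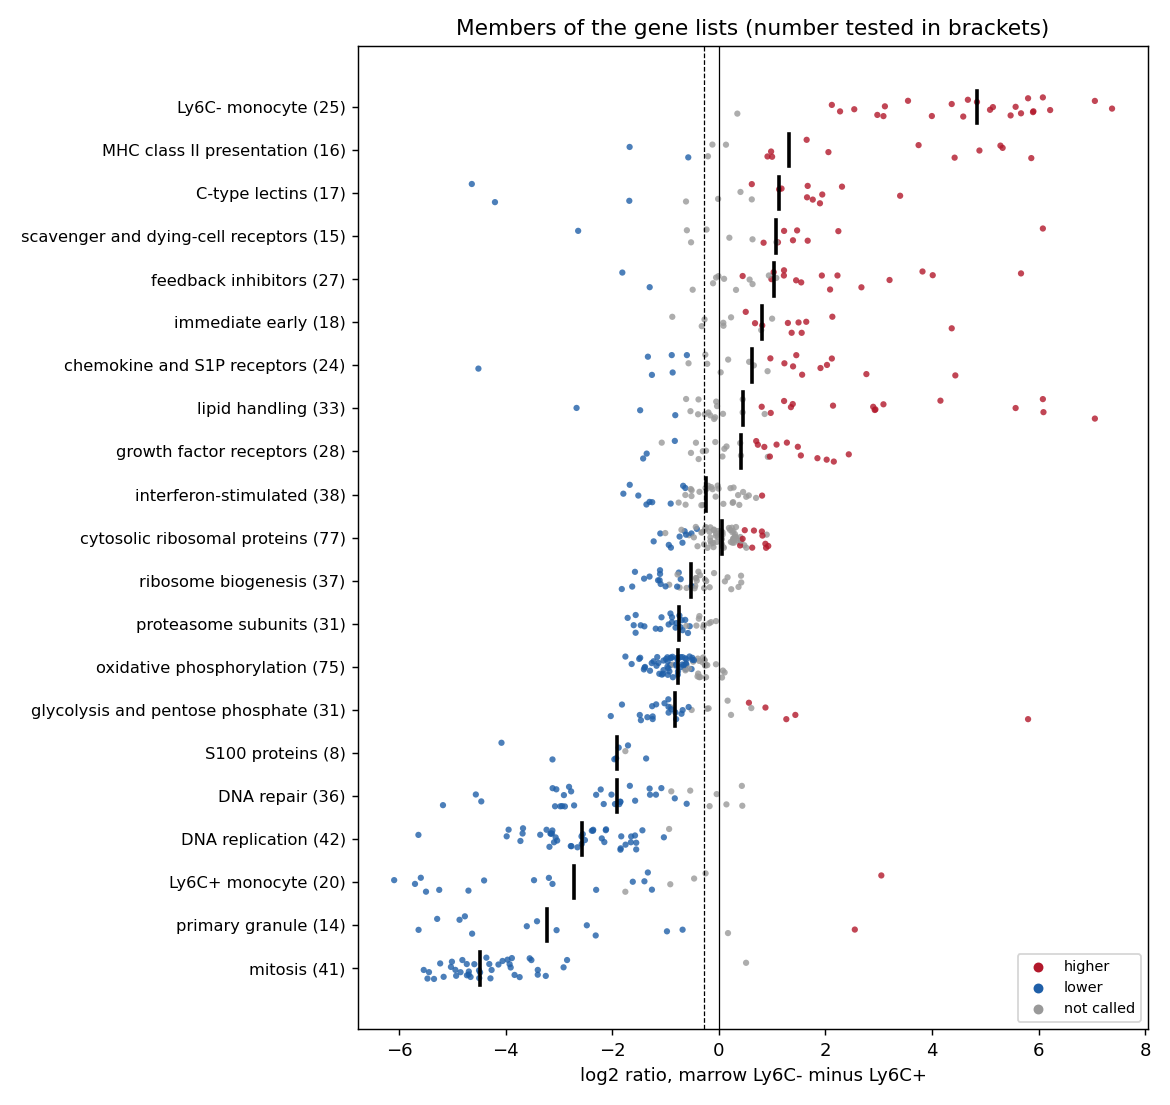
Log2 ratio of marrow Ly6C- to Ly6C+ monocytes (x axis) for each tested member of 21 gene lists (rows, with the number tested), red for higher, blue for lower and grey for not called, with a black bar at each list's median and the dashed line at -0.28, the median of all genes. Medians run from 4.84 for the Ly6C- monocyte list to -4.48 for mitosis.

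Energy genes were lower too, by less. Of 75 oxidative phosphorylation genes 52 were lower and 0 higher (35 and 0 with TMM; median -0.77). Atp5b, the catalytic subunit of ATP synthase, had 292, 302, 262 and 275 RPM in Ly6C- and 850.0, 985 and 1042 RPM in Ly6C+ libraries (-1.76 ± 0.15, adjusted p = 9.96e-11). Sdhc of succinate dehydrogenase had 103, 90.2, 73.2 and 100.1 RPM in Ly6C- and 233, 241 and 248 RPM in Ly6C+ libraries (-1.40 ± 0.17). The groups did not overlap for either. Glycolysis and the pentose phosphate pathway had 19 of 31 lower and 5 higher (16 and 5 with TMM; median -0.82), with Pgd of the pentose pathway at -1.49 ± 0.17, Pgk1 at -1.82 ± 0.24 and Eno3 the main exception. Redox genes were lower in 14 and higher in 2 of 27 cases (11 and 4 with TMM; 1 higher when Ly6C- replicate 1 or 4 or Ly6C+ replicate 1 or 3 was left out; median -0.57), Prdx4, a peroxidase of the endoplasmic reticulum, being at -2.53 ± 0.29.

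Machinery for making and removing protein moved with the scaling. Proteasome subunits were lower in 22 and higher in 0 of 31 cases (14 and 0 with TMM; median -0.74), Psma7 having 266, 258, 221 and 291 RPM in Ly6C- and 839, 740.0 and 775 RPM in Ly6C+ libraries (-1.60 ± 0.14). Ribosome biogenesis genes were lower in 15 and higher in 0 of 37 cases (6 and 1 with TMM; 9 lower without Ly6C+ replicate 3; median -0.52), Ncl, nucleolin, being at -1.11 ± 0.13. Of 77 cytosolic ribosomal protein genes 10 were higher and 10 lower (20 and 5 with TMM; median 0.06), so the split of this family depends on the scaling, and without Ly6C+ replicate 4 the higher ones numbered 4. Rplp0, of the ribosomal stalk, had 893, 815, 775 and 919.8 RPM in Ly6C- and 1783, 1662 and 2037 RPM in Ly6C+ libraries (-1.10 ± 0.15), and Rps10 had 194, 214, 213 and 210.2 RPM in Ly6C- and 127, 108 and 106 RPM in Ly6C+ libraries (0.87 ± 0.16). Each of these genes had groups that did not overlap, and they moved in opposite directions. Lysosomal genes split into 10 higher and 13 lower of 43 (13 and 10 with TMM; median -0.26), the lower ones near the 29.1% of all genes, with Ctsa, cathepsin A, at 1.05 ± 0.16 and Ctsc, which activates granule proteases, at -1.59 ± 0.15. Iron genes were higher in 4 and lower in 5 of 22 cases (median -0.05, with 6 and 3 under TMM), against 11% and 29.1% of all genes. Slc11a1, the phagosomal metal transporter, rose by 1.56. Chromatin modifiers were higher in 8 and lower in 8 of 35 cases (median -0.01, with 9 and 6 under TMM), against 11% and 29.1% of all genes. Without Ly6C+ replicate 4, 4 were higher. Ezh2, the enzyme of the repressive mark on histone H3, had 14.4, 16.99, 16.4 and 8.898 RPM in Ly6C- and 94.2, 104 and 81.9 RPM in Ly6C+ libraries (-2.67 ± 0.32). Dnmt3a, a de novo DNA methylase, was at 1.89 ± 0.28.

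Interferon-stimulated genes were lower in 9 and higher in 1 of 38 cases, against 29.1% and 11% of all genes. Their median of -0.24 sits beside the -0.28 of all genes, and with TMM 6 were higher and 5 lower. Without Ly6C- replicate 3 or Ly6C+ replicate 4, 0 were higher. Gbp3, a guanylate-binding protein, had 21.9, 35.3, 25.2 and 14.5 RPM in Ly6C- and 77.2, 85.7 and 84.8 RPM in Ly6C+ libraries (-1.79 ± 0.38). Mx1, an antiviral GTPase, had 26.9, 27.4, 36.3 and 20.02 RPM in Ly6C- and 62.5, 58.4 and 78.3 RPM in Ly6C+ libraries (-1.25 ± 0.28). Values of both genes were apart between the groups.

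The same comparison in blood, which shares no library with the marrow one, had 1121 genes higher (9.86%) and 1189 lower (10.5%). Called higher in both tissues were 549 genes, 43.7% of the marrow and 49.0% of the blood calls. Called lower in both were 792, which is 23.9% of the marrow and 66.6% of the blood calls. Another 10 genes were higher in marrow and lower in blood, and 110 were lower in marrow and higher in blood. The difference between the tissues, marrow ratio minus blood ratio, was called positive in 401 genes (3.53%) and negative in 1625 (14.3%), with a median of -0.28 over all genes. With TMM scaling 644 were positive and 1047 negative.

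The cell cycle difference was larger in marrow. In blood 12 of 41 mitosis genes were lower and 0 higher, and 5 of 42 DNA replication genes were lower and 4 higher, and the difference between tissues was called negative for 40 genes of each list. Of all genes tested, 10.5% were lower and 9.86% higher in blood, and 14.3% had a negative difference. These list counts are without TMM scaling. Cenpe, a motor of the centromere, had 1.99, 3.27, 2.34 and 1.11 RPM in marrow Ly6C- and 76.4, 51.1 and 50.7 RPM in marrow Ly6C+ libraries, and 1.16, 1.29 and 2.67 RPM in blood Ly6C- and 3.54, 0.768, 0 and 0 RPM in blood Ly6C+ libraries. The marrow Ly6C+ libraries lay far above those of the other groups, and the ratio differed by -4.91 ± 0.59 (adjusted p = 1.03e-06). Trip13, a checkpoint ATPase, Asf1b, a histone chaperone, Spc25 of the kinetochore, Rad51ap1, Spag5 of the spindle and Gtse1 followed, with differences of -4.85, -4.95, -4.84, -4.89, -4.83 and -4.78. Ezh2 had 16.2, 9.64 and 14.01 RPM in blood Ly6C- and 12.6, 4.61, 5.28 and 6.88 RPM in blood Ly6C+ libraries, values in or below the range of marrow Ly6C- cells, and differed by -3.50 ± 0.45.

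**Figure D4:**
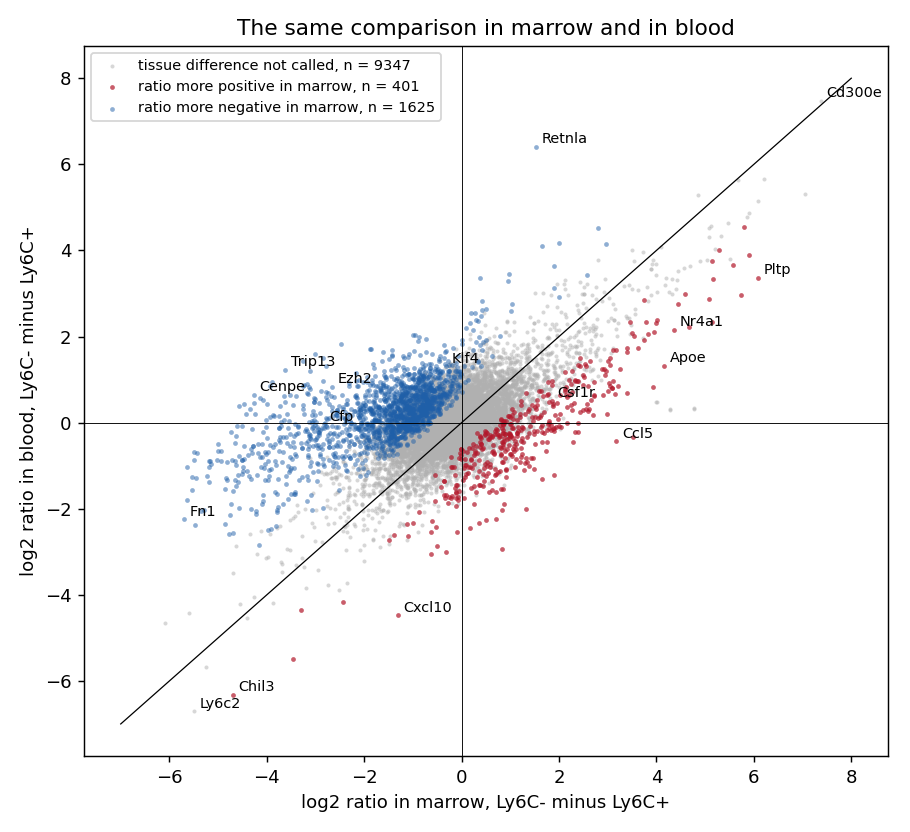
Log2 ratio of Ly6C- to Ly6C+ monocytes in marrow (x axis) and in blood (y axis) for 11373 genes, with the 401 genes whose ratio was more positive in marrow in red, the 1625 more negative in blue, and the line of equal ratios. Cd300e lies near the line at 7.38 and 7.48, while Apoe (4.16 and 1.33) lies below it and Retnla (1.52 and 6.4) above.

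Genes of Ly6C- identity had a larger ratio in marrow in 12 of 25 cases and a smaller one in 2, against 3.53% and 14.3% of all genes. Their list was drawn up with earlier results of these data known. Nr4a1 had 803, 1206 and 1132 RPM in blood Ly6C- and 230.2, 294, 301 and 141 RPM in blood Ly6C+ libraries, a ratio of 2.15, and the marrow ratio exceeded it by 2.22 ± 0.40 (adjusted p = 2.49e-04). Apoe had 6930.1, 6005 and 6024 RPM in blood Ly6C- and 2378, 2150.4, 3037 and 2578 RPM in blood Ly6C+ libraries, with a difference of 2.83 ± 0.31 (adjusted p = 2.96e-07). For both genes the Ly6C+ cells of marrow lay far below those of blood. Csf1r (1.34), Klf2 (1.40), S1pr5 (1.67), Cx3cr1 (1.33) and Adgre4, an adhesion receptor of the EGF-TM7 family (2.80), also had more positive ratios in marrow. Cd300e did not pass the test of the difference (-0.10 ± 0.48, adjusted p = 0.916). Bcl2 went the other way at -0.85 ± 0.30 (adjusted p = 0.045), a call held in 9 of 26 alternatives.

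Klf4 differed by tissue. It had 651, 502 and 382 RPM in blood Ly6C- and 308, 277, 159 and 119 RPM in blood Ly6C+ libraries, a ratio of 1.31, while in marrow the groups overlapped, and the difference was -1.63 ± 0.36 (adjusted p = 0.00162). Cfp had a ratio of -0.04 in blood and a difference of -2.79 ± 0.29. Retnla, a secreted resistin-like protein, had 130.3, 178 and 32.7 RPM in blood Ly6C- and 0, 0, 0 and 0.43 RPM in blood Ly6C+ libraries, but 6.47, 5.88, 1.76 and 0 RPM in marrow Ly6C- and 0, 0 and 0.725 RPM in marrow Ly6C+ libraries. Its high values were in blood Ly6C- cells and spread widely there, with a difference of -4.88 ± 0.84 (adjusted p = 1.31e-04). The marrow ratio of Retnla was called, but held in 11 of 19 alternatives, and the call was lost without Ly6C- replicate 1 or 2 or Ly6C+ replicate 1 or 3 (1.15 to 1.39).

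Interferon-stimulated genes were lower in blood Ly6C- than in blood Ly6C+ cells in 25 of 38 cases and higher in 0, and the tissue difference was positive in 17 and negative in 1. Of all genes tested, 10.5% were lower and 9.86% higher in blood, and the difference was positive in 3.53% and negative in 14.3%. These list counts are without TMM scaling. Ifit3, an antiviral gene, had 27.9, 16.3, 25.2 and 21.1 RPM in marrow Ly6C- and 16.98, 15.8 and 8.699 RPM in marrow Ly6C+ libraries, and 11.6, 11.6 and 16.02 RPM in blood Ly6C- and 53.6, 52.2, 90.7 and 70.9 RPM in blood Ly6C+ libraries (2.95 ± 0.46, adjusted p = 4.15e-05). The blood Ly6C+ libraries were the high ones. Cxcl10, an interferon-induced chemokine, differed by 3.17 ± 0.54. Ccl5, a chemokine for T cells and monocytes, had 17.4, 33.3, 15.8 and 40.04 RPM in marrow Ly6C- and 2.32, 1.82 and 1.45 RPM in marrow Ly6C+ libraries, against 19.1, 13.5 and 32.7 RPM in blood Ly6C- and 24.3, 19.98, 32.6 and 38.7 RPM in blood Ly6C+ libraries (3.61 ± 0.57). Ccl5 was low in marrow Ly6C+ cells and at a like level in the other groups. Sparc, a matrix protein carried by platelets, had 16.4, 22.2, 2.93 and 23.4 RPM in marrow Ly6C- and 3.09, 6.08 and 15.9 RPM in marrow Ly6C+ libraries, and 1.16, 3.86 and 2.67 RPM in blood Ly6C- and 4.05, 19.98, 73.96 and 54.6 RPM in blood Ly6C+ libraries, with wide spread (3.76 ± 0.92). Adap2 and Ms4a7 differed by 3.12 and 2.78.

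**Figure D5:**
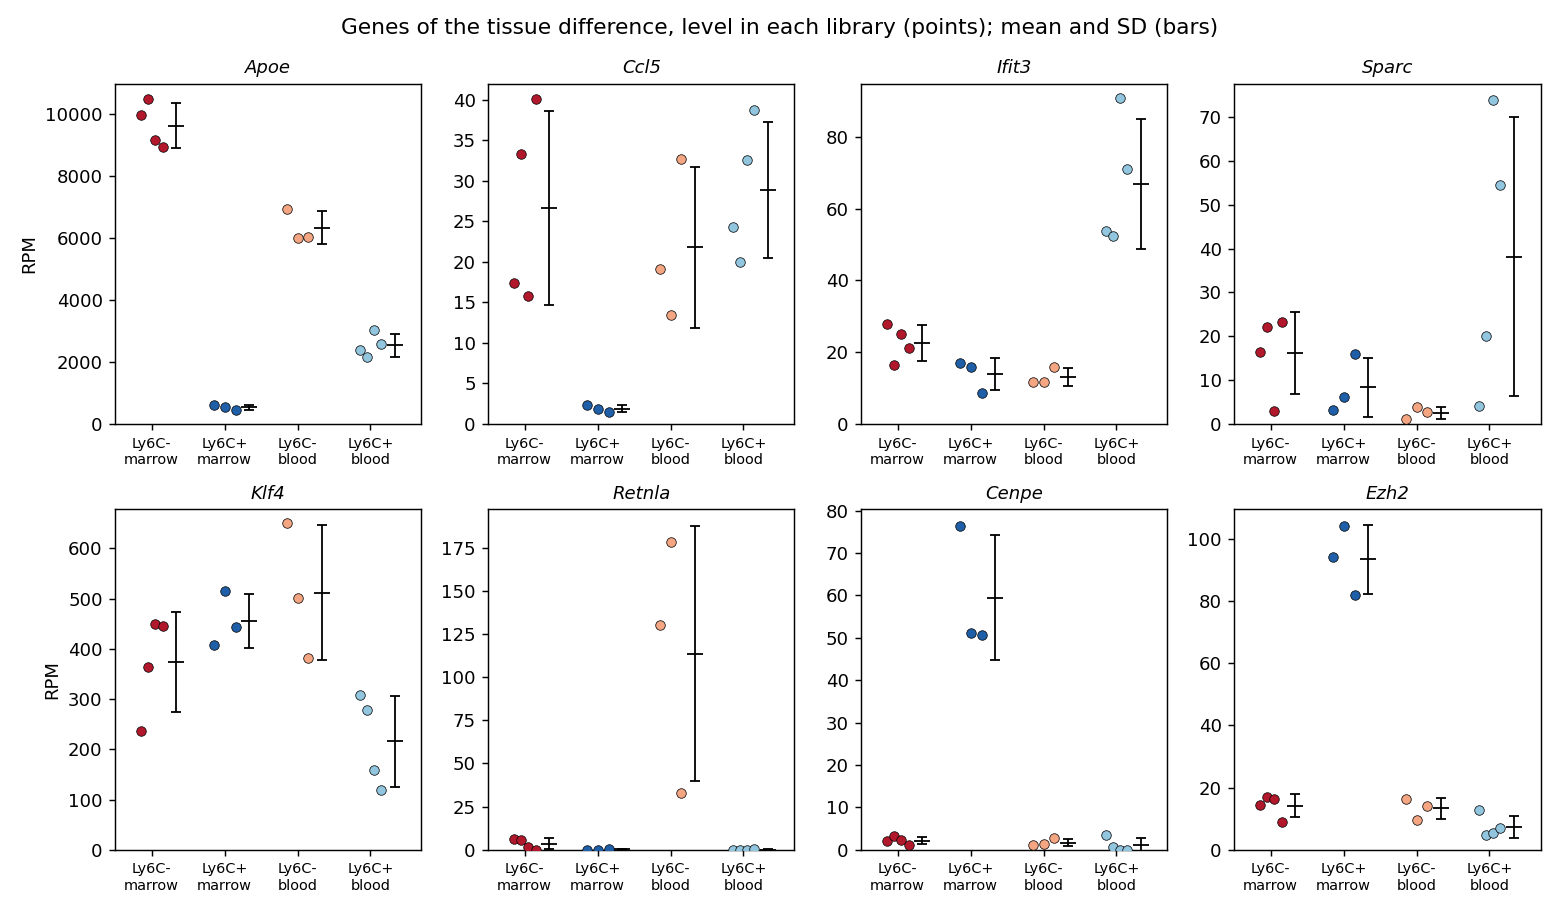
Level in RPM (y axis, from 0) of 8 genes in each library of marrow Ly6C-, marrow Ly6C+, blood Ly6C- and blood Ly6C+ monocytes (left to right), with the mean and SD beside the points. Cenpe and Ezh2 are high in marrow Ly6C+ cells, Ifit3 in blood Ly6C+ cells and Retnla in blood Ly6C- cells, and Apoe is lowest in marrow Ly6C+ cells.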

How the data were processed

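RNA captured on oligo-dT beads was sequenced, per the labels' protocols. HISAT 0.1.5, HOMER, SAMtools and bcl2fastq, and the build mm9, are listed in the submitters' processing notes; the annotation and counting options are not given in the sources used here. The authors deposited signal values per gene, reads scaled so that each library has a common total, which is taken to be 10000000 as HOMER does by default, though the labels do not state it. Values were divided by 10 to give RPM. Dividing each column by the value of 1 read recovered whole reads within 0.1 read in all 25 libraries. Blood Ly6Cint replicate 2, whose step lies near a power of 10, was left out of edgeR and DESeq2, which leaves 24 libraries. Intervals from depth cover counting error only.

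Genes with 2 RPM in at least 3 of 25 libraries entered limma's trend fit (version 3.58.1, in R 4.3.3) of log2(RPM + 1), with 1 mean per group, and p-values adjusted over 11373 of 24421 genes. Alternatives included edgeR 4.0.16 and DESeq2 1.42.0 on recovered reads of the 24 libraries, other scalings, pseudocounts and filters, and a replicate block. Each Ly6C- and Ly6C+ library of marrow and blood was also left out in turn, but no library of the other groups was. The scripts were tested on simulated data. Named genes were the 15 called with the largest ratio in each direction (no overlap, the higher group averaging 20 RPM or more, no clone names), up to 5 called members of each of 48 lists by p, 8 per direction of the tissue difference, and a fixed set; a few list members, such as those at 0, are named after their values were seen. A few genes that the rule names are not reported here. Groups, lists and members were chosen with earlier results of these data known. Promoters are RefSeq's, GRCm38.p6, used with its own coordinates.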

Additional observations from a re-analysis of the deposited data

Results flagged for a closer look

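Single libraries stood far from the other 3 of the Ly6C- group for 17 named genes. Chance alone flags about 1 in 20 groups of 4, and 241 genes were screened.

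Ly6C- replicate 2 held the high value for Elane (11.8 RPM, others at most 2.22), Chil3 (82.3, others at most 50.8), Ctsg (45.7, others at most 11.1), Ms4a3 (5.88, others at most 1.11), Cdc20 (3.92, others at most 1.17), and, with the others at 0, Fcnb (1.31), Ccne2 (2.61), Polq (0.653) and Suv39h2 (0.653). The last 2 are 1 read each. Ly6C- replicate 3 was low for Cebpd (74.4 RPM, others at least 105) and Ldhb (3.51, others at least 6.67) and high for Tgfbr2 (100.2, others at most 84.9), Ccl2 (1.17) and Slfn10-ps (1.76), the other 3 libraries being at 0 for the last 2. Ly6C- replicate 4 was low for Rpl14 (655 RPM, others at least 984) and H2afx (14.5, others at least 28.4), and replicate 1 had Thbs1 at 0.498 RPM with the others at 0.

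Ratios that differed between marrow and blood, by limma's test of the difference (marrow minus blood, log2), were positive for Sparc (3.76), Ccl5 (3.61), Cxcl10 (3.17), Adap2 (3.12), Ifit3 (2.95), Apoe (2.83), Adgre4 (2.80), Ms4a7 (2.78), Nr4a1 (2.22), S1pr5 (1.67), Klf2 (1.40), Csf1r (1.34) and Cx3cr1 (1.33). They were negative for Asf1b (-4.95), Cenpe (-4.91), Rad51ap1 (-4.89), Retnla (-4.88), Trip13 (-4.85), Spc25 (-4.84), Spag5 (-4.83), Gtse1 (-4.78), Mki67 (-3.37), Klf4 (-1.63) and Bcl2 (-0.85).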

How the results depend on the processing

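Of 241 named genes, 220 kept their direction and their side of the threshold under every alternative, and 149 of 1824 list counts moved by over 1.5 times. Counts moved with the scaling, the count models and the choice of libraries; the cause was not tested. Higher and lower genes in marrow numbered 2027 and 2205 with quantile scaling, 1976 and 2166 with DESeq2, and 1852 and 2128 with edgeR, so 47.9%, 47.7% and 46.5% of calls were higher, and 37.4% when scaled to the listed genes. Positive and negative tissue differences numbered 843 and 969 with quantile scaling, 644 and 1047 with TMM, 621 and 801 with edgeR, and 917 and 953 with DESeq2. Fitting the compared libraries alone, which leaves fewer samples for the spread, gave 218 and 824. Leaving out 1 Ly6C- or Ly6C+ library of marrow or blood at a time gave 1015 to 1352 genes higher and 2794 to 3538 lower in marrow. Positive differences then numbered 317 to 476 and negative ones 1277 to 1823. The replicate block gave 1237 higher and 3276 lower; same-numbered libraries did not deviate together (r of -0.05, 0.04 and 0.11 for numbers 1, 3 and 4), so the numbers were not used as pairs. Uncalled genes near 0 changed sign: the log2 ratio of Cxcr4 was 0.0019 with quantile scaling, 0.033 with TMM, 0.066 with edgeR and 0.095 with DESeq2, and that of Klf4 was 0.0084 with edgeR and 0.039 with DESeq2. Depth limits genes near the floor of 3 reads, 2.11 RPM on average in the marrow Ly6C+ libraries. edgeR and DESeq2 were run on 24 libraries, without blood Ly6Cint replicate 2.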
